A study of Mus musculus with 8 samples.

Results

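Interleukins and their receptors were followed in colon RNA from mice that express human Siglec-XII in the intestinal epithelium and from controls. The genes were taken by name, as every symbol that begins with Il and a number and then holds only lower case letters and digits. Of the 52143 rows of the expression table, 86 matched and gave 83 genes, because Il11ra2 had 3 rows and Il12rb1 had 2 rows, with values identical in all 8 samples, and 1 row of each was kept. By role, 37 of the 83 genes encode ligands or ligand subunits and 39 encode receptor chains, 3 of which are decoy receptors that bind a ligand without signaling. The other members are 3 secreted antagonists, 2 neuronal relatives of the IL-1 receptor accessory chain, the enzyme gene Il4i1 and the antisense RNA Il1bos.

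Control mice carried the Villin1-Cre-ERT transgene alone. Siglec-XII mice carried it together with 1 allele of a human SIGLEC12 cassette at the ROSA26 locus, in which a floxed EGFP stop blocks SIGLEC12 until Cre removes it. Both groups were 8 weeks old when they received tamoxifen on 5 days (10 mg/ml stock), and colons were collected 7 days after the last dose, so the controls share the Cre transgene and the drug. The Villin1 promoter limits Cre to epithelial cells of the small and large intestine, while the RNA came from whole colon tissue, which the study's methods describe as distal colon. The labels list 4 samples in each group and the design text names 3 mice per condition. Because the methods also mention 3 technical replicate libraries per sample, the p-values below measure the spread among these 8 samples, which may be in part technical. Expression of SIGLEC12, EGFP and Cre was not analysed here, so the genotypes could not be checked against it. Values are in TPM (transcripts per 1,000,000), which scale each gene to its length and each library to the same total. They keep no read depth, so the number of reads behind a value is unknown and no counting interval is given.

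Interleukins are secreted signals between epithelial, stromal and immune cells, and most bind receptors of more than 1 chain. Some chains act from a neighboring cell or in soluble form, as the alpha chains for IL-15 and IL-6 do. In the colon, IL-22 and IL-17 from lymphocytes act on epithelial receptors and maintain mucus, antimicrobial proteins and barrier repair, whereas IL-10 restrains macrophages and T cells. IL-1, IL-18, IL-33 and the IL-36 proteins form the IL-1 family, whose members are made by barrier epithelia and myeloid cells and signal through MyD88, and most other interleukin receptors signal through Janus kinases and STAT proteins.

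The tissue was checked against marker lists. The 8 colon epithelial markers summed to between 11004 and 15435 TPM in every sample, led by Krt8, and their group values overlapped. T cell transcripts were sparse: Cd3e lay between 0.226 and 0.567 TPM, and of the 7 T cell markers only Lck, which was between 1.58 and 2.56 TPM, reached 1 TPM in any sample. Genes of stratified squamous epithelium, the multilayered lining of skin and anus, were also abundant, although the labels name only colon. This list of 17 genes was drawn up after the values had been seen. Its sum was 27183, 2650, 2387 and 15019 TPM in Control 1 to 4 and 2853, 7272, 1253 and 1565 TPM in Siglec-XII 1 to 4. Krt14, its most abundant gene, was at 5674 TPM in Control 1 and 120 TPM in Siglec-XII 3, and no gene of the list was at 0 in any sample. Control 1 and Control 4 were thus the highest samples and Siglec-XII 2 the next. Siglec-XII 3 and 4 stood apart on the leading principal component, which held 40.3% of the variance, with scores of 36.2 and 50.2 against -29.0 to -4.80 in the other 6 samples.

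In the controls, 12 of 37 ligand genes and 18 of 39 receptor-side genes had a mean of at least 1 TPM, as did all 3 secreted antagonists. The ligands were, from the highest control mean, Il18, Il15, Il1f6, Il33, Il34, Il1f9, Il1f8, Il7, Il17d, Il1b, Il1a and Il4. Of these Il17d, Il1a and Il4 are outside the rule by which genes were to be named, and they were added after the values were seen. With the threshold required in every control the ligand count was 8, and the ligands that dropped out, Il1f8, Il1b, Il1a and Il4, had at least 1 control below 1 TPM. The receptor-side count changed less, to 17. The other 25 ligand genes reached 1 TPM in none of the 8 samples. In bulk tissue, a low level can mean few cells of a type or little RNA per cell, and these cannot be told apart.

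**Figure D1:**
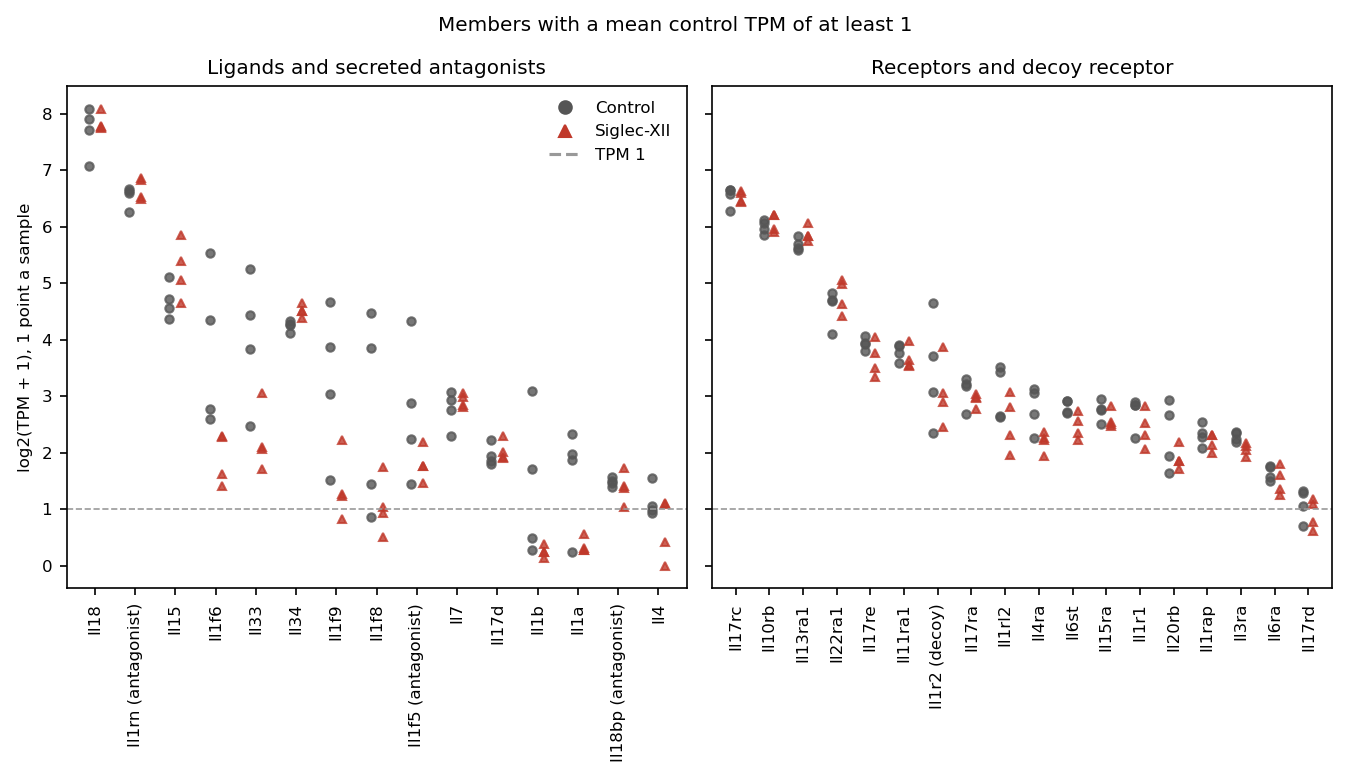
Level of each member with a mean control TPM of at least 1, as log2(TPM + 1), with 1 point for each of the 4 Control (circles) and 4 Siglec-XII (triangles) samples and a dashed line at TPM 1. The ligands Il1f8, Il1f6 and Il1f9 have the widest spread among controls on this scale, while the receptor chains Il17rc, Il10rb and Il13ra1 lie close together in both groups.

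Il18 encodes a cytokine that epithelial cells hold as an inactive precursor until caspase-1 cleaves it. It was the most abundant interleukin, at 133, 271, 209 and 239 TPM in Control 1 to 4 and 220, 214, 270 and 217 TPM in Siglec-XII 1 to 4. The groups overlapped, and Control 1 was the lowest sample. On the log2(TPM + 1) scale used for all tests, the means were 7.69 ± 0.44 in controls and 7.85 ± 0.16 in Siglec-XII mice (SD, n = 4 each), a difference of 0.15 (95% interval -0.31 to 0.61), and without Control 1 the difference was -0.06. Il18r1 and Il18rap, the chains of its receptor, averaged 0.197 and 0.762 TPM in controls. The binding protein Il18bp, which neutralizes IL-18, averaged 1.80 TPM.

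Il15 encodes a growth factor for intraepithelial lymphocytes and natural killer cells. It was at 22.8, 19.7, 25.4 and 33.8 TPM in Control 1 to 4 and 24.0, 32.2, 41.1 and 56.9 TPM in Siglec-XII 1 to 4. Siglec-XII 3 and 4 were the highest samples, and Siglec-XII 1 and 2 lay within the control range. The log2 difference was 0.54 ± 0.26 (SE), with an adjusted p of 0.515 in limma, and it was 0.15 without Siglec-XII 3 and 4. Its receptor chain Il15ra averaged 5.76 TPM in controls, whereas Il2rb and Il2rg, the chains that carry the signal, averaged 0.188 and 0.644 TPM. The level of Il2rg is less certain, since it shares 28.7% of its 31-base words with other genes, mostly Gm20489.

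Il34, a ligand of the macrophage receptor encoded by Csf1r, differed between the groups without overlap. It was at 16.3, 18.3, 19.1 and 18.4 TPM in Control 1 to 4 and 24.0, 21.9, 19.9 and 21.7 TPM in Siglec-XII 1 to 4. The lowest Siglec-XII value exceeded the highest control value, by a small margin between Control 3 and Siglec-XII 3. Means were 4.25 ± 0.09 and 4.51 ± 0.10 on the log2 scale (SD, n = 4 each), and the difference of 0.27 ± 0.10 (SE) had an adjusted p of 0.515 in limma. Csf1r itself was between 0.368 and 1.05 TPM in all samples. Il7, a survival factor for lymphocytes, lay between 3.91 and 7.42 TPM in both groups, with a log2 difference of 0.17, or 0.01 without Control 1 and 0.27 without Siglec-XII 3 and 4. Its receptor chain Il7r averaged 0.112 TPM in controls.

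The 3 genes of the IL-36 proteins, Il1f6 (IL-36 alpha), Il1f8 (IL-36 beta) and Il1f9 (IL-36 gamma), lie side by side on chromosome 2 and encode agonists of the receptor Il1rl2, known best from skin. Il1f6 was at 45.5, 5.86, 5.04 and 19.4 TPM in Control 1 to 4 and 3.94, 3.84, 1.66 and 2.08 TPM in Siglec-XII 1 to 4. All Siglec-XII samples were below all controls. Il1f9 was at 24.4, 7.19, 1.84 and 13.7 TPM in the controls and 1.41, 3.66, 0.779 and 1.36 TPM in Siglec-XII mice. Il1f8 was at 21.2, 1.72, 0.817 and 13.5 TPM in the controls and 0.912, 2.34, 0.423 and 1.05 TPM in Siglec-XII mice. For both of these the groups overlapped, as Siglec-XII 2 was above Control 3, and Control 1 and Control 4 were the highest samples for all 3 genes.

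Il33 encodes an alarmin stored in the nucleus of barrier cells and released on damage. It was at 37.1, 13.3, 4.52 and 20.8 TPM in Control 1 to 4 and 3.29, 7.31, 2.28 and 3.17 TPM in Siglec-XII 1 to 4. The order of the controls was that of Il1f9, and Siglec-XII 2 was above Control 3. The chain Il1rl1, which binds IL-33, averaged 0.190 TPM in controls.

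All 4 of these ligands had lower means in Siglec-XII mice, and none passed the threshold of an adjusted p of 0.05. The log2 difference was -1.91 ± 0.61 (SE) for Il1f6, with means of 3.82 ± 1.39 in controls and 1.90 ± 0.45 in Siglec-XII mice (SD, n = 4 each). It was -1.88 ± 0.61 for Il1f9, -1.77 ± 0.54 for Il33 and -1.60 ± 0.76 for Il1f8, each with an adjusted p of 0.515 in limma and all 4 Siglec-XII samples below the control mean. Low values are compressed by the added 1, so these differences understate changes near 1 TPM. Leaving out Control 1 and Control 4 together, a choice made after the data had been seen, gave differences of -0.78 for Il1f6, -0.88 for Il1f9, -0.92 for Il33 and -0.10 for Il1f8. Control 1 and Control 4 were also the highest samples for 15 of the 17 squamous genes, and the other 2, Krt15 and Krtdap, did not follow the ligands. All 17 had lower means in Siglec-XII mice, as had 78.1% of all genes, with a median log2 difference of -1.30, and 1 of them, the desmosome gene Dsg3, had an unadjusted P of at most 0.05. Whether these genes have a part in the IL-36 and IL-33 values was not tested.

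**Figure D2:**
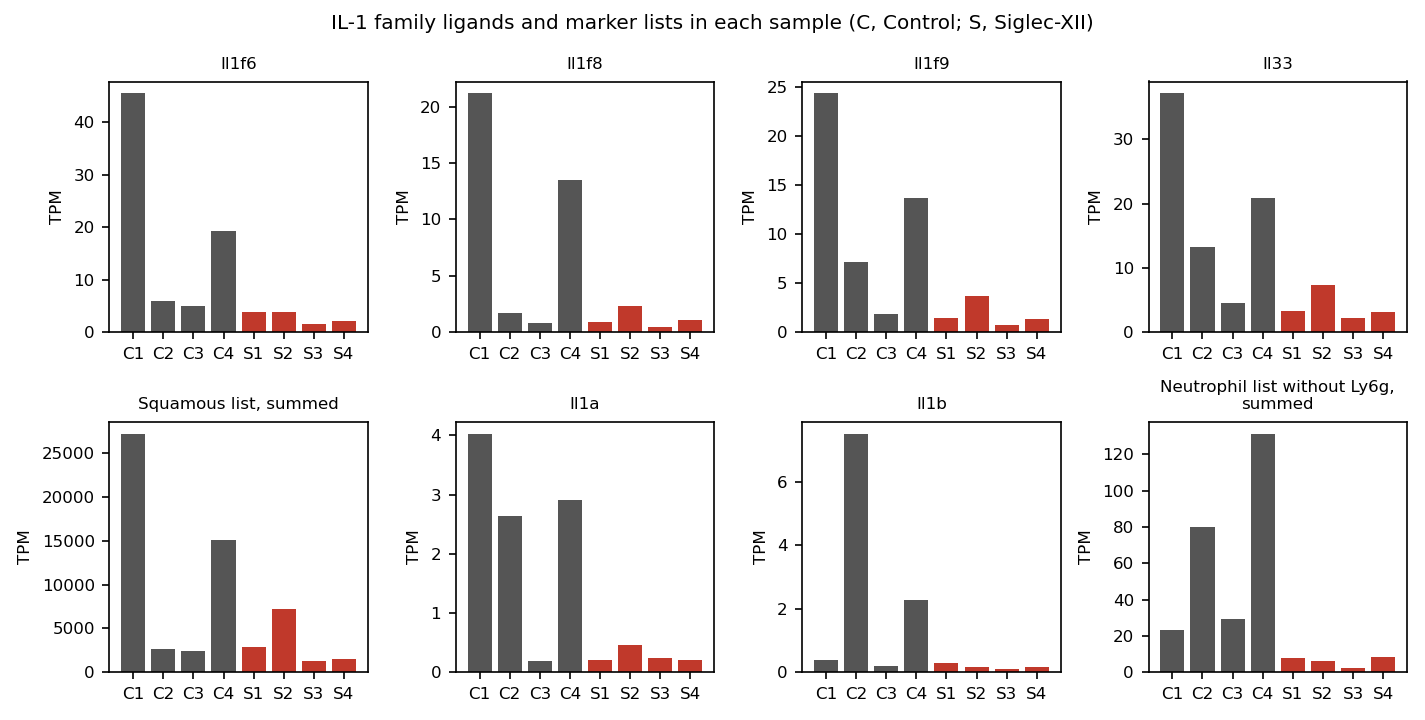
TPM of 6 IL-1 family ligands, the summed TPM of the 17 genes of the squamous list and the summed TPM of 5 of the 6 neutrophil genes (Ly6g, the most abundant and highest in Siglec-XII 4, left out after the values were seen), in each Control (C1 to C4, grey) and Siglec-XII (S1 to S4, red) sample. Il1f6, Il1f8, Il1f9, Il33 and the squamous sum are highest in Control 1 and next highest in Control 4, whereas Il1b is highest in Control 2. The neutrophil sum is nearly all S100a8 and S100a9.

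Among the 31 members that could be tested, 7 had Control 1 and Control 4 as their highest pair of samples, against 8.64% of all 13164 tested genes. This pair of samples was picked because the IL-36 genes, Il33 and the squamous genes were highest there, so the count in part restates that pattern. The 7 were Il33, Il1f6, Il1f8, Il1f9, the IL-36 receptor antagonist Il1f5, the IL-36 receptor Il1rl2 and Il20rb, a chain of the IL-19, IL-20 and IL-24 receptors. Il1f5 was at 6.37, 1.73, 3.73 and 19.0 TPM in Control 1 to 4 and 2.40, 3.58, 1.75 and 2.41 TPM in Siglec-XII 1 to 4. So the agonists of IL-36, their antagonist and their receptor shared the samples in which they were highest. Il1f5 and Il20rb were singled out after their values were seen.

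Promoters are shown for 3 ligands that varied together, Il1f8, Il1f9 and Il33, and for Il18, which did not follow them. RefSeq start sites for build GRCm38.p6 matched 66 of the 83 members, and Il1f6 had no entry. For Il33, with 2 listed starts, the start nearest to that in GENCODE was taken. Each run covers 250 bases before and 50 bases after the start on the plus strand, at chr2:24152922-24153221, chr2:24186226-24186525, chr19:29924863-29925162 and chr9:50554450-50554749. Capitals mark matches on either strand to the TATA box (TATAAA), the AP-1 motif (TGANTCA) or the NF-kB motif.
Il1f8: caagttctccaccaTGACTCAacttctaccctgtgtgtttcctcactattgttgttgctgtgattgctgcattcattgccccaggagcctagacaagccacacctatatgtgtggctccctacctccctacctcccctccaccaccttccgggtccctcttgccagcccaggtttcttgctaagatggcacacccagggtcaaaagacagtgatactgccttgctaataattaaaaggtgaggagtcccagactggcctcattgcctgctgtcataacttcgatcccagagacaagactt
Il1f9: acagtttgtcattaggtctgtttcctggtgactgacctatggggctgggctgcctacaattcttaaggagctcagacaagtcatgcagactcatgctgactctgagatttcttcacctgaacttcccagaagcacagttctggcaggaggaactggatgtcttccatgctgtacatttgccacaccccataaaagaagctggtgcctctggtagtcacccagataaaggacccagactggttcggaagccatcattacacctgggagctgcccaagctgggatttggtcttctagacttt
Il33: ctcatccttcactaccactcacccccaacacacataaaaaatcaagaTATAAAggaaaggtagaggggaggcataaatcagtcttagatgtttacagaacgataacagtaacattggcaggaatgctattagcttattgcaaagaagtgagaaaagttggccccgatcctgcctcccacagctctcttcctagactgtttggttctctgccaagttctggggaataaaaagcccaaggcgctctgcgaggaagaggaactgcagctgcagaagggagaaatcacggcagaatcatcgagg
Il18: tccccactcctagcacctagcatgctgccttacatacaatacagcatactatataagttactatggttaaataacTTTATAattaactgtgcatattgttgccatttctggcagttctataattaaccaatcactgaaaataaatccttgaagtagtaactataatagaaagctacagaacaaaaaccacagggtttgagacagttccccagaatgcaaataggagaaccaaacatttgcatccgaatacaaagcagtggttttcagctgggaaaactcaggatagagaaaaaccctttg
The Il1f8 window holds 1 AP-1 match, with its first base at -236 from the start. The Il33 and Il18 windows hold 1 match each to the TATA box letters, at -203 and -175, that of Il18 on the other strand. The Il1f9 window has no match to the 3 motifs. Of all 32851 promoters, 7.81% hold the AP-1 letters, 13.6% the TATA box and 4.51% the NF-kB motif, and of the 81 member promoters 14, 14 and 7 do. Thus the 3 ligands that varied together share none of these motifs in these windows.

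Il1b and Il1a encode the classical IL-1 agonists. Il1b was at 0.395, 7.51, 0.217 and 2.29 TPM in Control 1 to 4 and 0.298, 0.183, 0.0925 and 0.184 TPM in Siglec-XII 1 to 4. Its control mean of 2.60 TPM rests on Control 2 and Control 4, and Control 1 and Control 3 lie near the Siglec-XII samples. With fewer than 4 samples at 1 TPM it did not pass the filter and was not tested in the main fit. Without a filter, Il1b was not among the 7 members with an unadjusted P of at most 0.05 in limma. Il1a was at 4.03, 2.64, 0.187 and 2.91 TPM in the controls and between 0.206 and 0.465 TPM in Siglec-XII mice, and was also below the filter. Tested without a filter, it had an unadjusted P of at most 0.05. It was highest in Control 1 and Control 4, as were the IL-36 genes, Il33 and the squamous sum. Il1b overlaps the antisense RNA gene Il1bos over 1243 bases on chromosome 2. Il1bos was between 0.511 and 1.32 TPM, with its highest value in Siglec-XII 2, and did not follow Il1b. The labels name a stranded kit, but the strand setting of the quantification is not given in the sources used here.

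The neutrophil list did not follow Il1b as a whole. Its 6 genes summed to 265, 356, 307 and 459 TPM in Control 1 to 4 and 280, 298, 232 and 365 TPM in Siglec-XII 1 to 4, but most of each sum was Ly6g, at 230 to 356 TPM in every sample. Without Ly6g, which was set aside after the values were seen and had a log2 difference of 0.02, the other 5 genes summed to 23.2, 80.1, 29.2 and 131 TPM in the controls and 7.80, 6.32, 2.23 and 8.57 TPM in Siglec-XII mice. Nearly all of this sum came from S100a8 and S100a9, the genes of calprotectin. Control 4 and Control 2, which were also the highest samples for Il1b, were the highest for this sum. Within it both genes of calprotectin had groups without overlap, on the lower side. These were 2 of the 3 tested genes of the neutrophil list, against 4.06% of all genes. S100a8 was at 9.61 to 40.9 TPM in controls and 0.957 to 4.03 TPM in Siglec-XII mice, with a log2 difference of -2.61, an adjusted p of 0.333 in limma and all 4 Siglec-XII samples below the control mean. S100a9 was at 13.6 to 89.1 TPM in controls and 1.25 to 5.39 TPM in Siglec-XII mice, with a log2 difference of -2.94 and an adjusted p of 0.515 in limma. The granule enzyme gene Mpo was at most 0.0821 TPM in any sample and listed at 0 in Control 1 and all Siglec-XII samples. The receptor gene Csf3r was at 1.52 TPM in Control 2 and 0.806 TPM in Control 4, and at 0.136 TPM or less in the other 6 samples. Their part in the Il1b values was not tested.

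The lymphocyte interleukins were near or at 0. Il22, Il13, Il2, Il3, Il5 and Il31 were listed at 0 in all 8 samples. Il17a, the T helper 17 cytokine, was at 0.215, 0.0347, 0.0746 and 0 TPM in Control 1 to 4 and listed at 0 in all 4 Siglec-XII samples. Il21, a T cell cytokine named after its values were seen, was between 0.0122 and 0.135 TPM in the controls and listed at 0 in all 4 Siglec-XII samples, and was not tested. Il10 was above 0 only in Control 3 and Siglec-XII 3, at 0.0324 TPM or less, and Il6 only in Control 2 and Siglec-XII 3. Il23a, a subunit of the cytokine that sustains T helper 17 cells, lay between 0.0667 and 0.174 TPM, and the tuft cell cytokine Il25 between 0 and 0.125 TPM. Il22 shares 53.6% of its 31-base words with transcripts of other genes, mostly its copy Iltifb, so reads could be divided between them. Il4, the T helper 2 cytokine, was the exception among lymphocyte ligands, at 0.907, 0.979, 1.94 and 1.08 TPM in Control 1 to 4 and 1.12, 1.15, 0 and 0.336 TPM in Siglec-XII 1 to 4.

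Among the secreted antagonists, Il1rn, which blocks the IL-1 receptor, was the most abundant, at 75.5, 98.9, 95.7 and 101 TPM in Control 1 to 4 and 116, 113, 91.4 and 89.6 TPM in Siglec-XII 1 to 4. The groups overlapped, and the log2 difference was 0.14 ± 0.13 (SE), or 0.05 without Control 1, the lowest sample, and 0.31 without Siglec-XII 3 and 4. Its control mean of 92.7 TPM stands beside 2.60 TPM for Il1b and 2.44 TPM for Il1a.

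The receptor chains with the highest levels were, in order, Il17rc, Il10rb, Il13ra1 and Il22ra1, which serve IL-17, IL-22 and IL-10, IL-4 and IL-13, and IL-22. Il17rc, which pairs with Il17ra to bind IL-17A and IL-17F, was at 76.5, 94.5, 99.0 and 100 TPM in Control 1 to 4 and 96.4, 97.9, 85.4 and 86.8 TPM in Siglec-XII 1 to 4. The groups overlapped almost fully, and the log2 difference was -0.01 (95% interval -0.25 to 0.24). Il17ra, the shared chain of the family, averaged 7.67 TPM in controls and 6.68 TPM in Siglec-XII mice. Il17re, which completes the epithelial receptor for IL-17C, averaged 14.3 TPM in controls and was lowest in Siglec-XII 3 and 4, at 10.3 and 9.11 TPM. Il17rb, the IL-25 chain, was between 0.783 and 1.03 TPM in controls and between 0.584 and 0.711 TPM in Siglec-XII mice. These did not overlap, but the gene was below the filter and was not tested.

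Both chains of the IL-22 receptor were well expressed. Il10rb, also a chain of the IL-10 receptor, was between 57.2 and 68.3 TPM in controls and between 58.8 and 73.0 TPM in Siglec-XII mice. Il22ra1 was at 16.3, 27.3, 25.1 and 24.8 TPM in Control 1 to 4 and 32.2, 30.9, 20.5 and 23.8 TPM in Siglec-XII 1 to 4. Its groups overlapped, and the log2 difference was 0.19 ± 0.20 (SE), or 0.04 without Control 1, the lowest sample, and 0.44 without Siglec-XII 3 and 4. With array weights it was 0.27 and with median centring 0.41, both with an unadjusted P of at most 0.05. Il10ra, which IL-10 needs in addition to Il10rb, averaged 0.286 TPM in controls, and the soluble IL-22 binder Il22ra2 was at 1.23 TPM in Control 1 and between 0.113 and 0.409 TPM in the other samples. Il10rb shares 14.8% of its 31-base words with other genes.

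Differences of opposite sign were found for Il4ra and Il13ra1, the chains for IL-4 and IL-13. Only that of Il4ra had an unadjusted P of at most 0.05 in the main limma fit. Il4ra was at 7.73, 7.28, 3.78 and 5.42 TPM in Control 1 to 4 and 4.16, 3.66, 2.86 and 3.76 TPM in Siglec-XII 1 to 4. Control 3 lay within the Siglec-XII range, and the other controls lay above it. The log2 difference was -0.58 ± 0.21 (SE), with an adjusted p of 0.515 in limma and all 4 Siglec-XII samples below the control mean. Il13ra1 was between 47.3 and 56.3 TPM in controls and between 52.7 and 66.0 TPM in Siglec-XII mice, a log2 difference of 0.18 ± 0.10 (SE). The Il13ra1 difference was 0.12 without Siglec-XII 4 and 0.099 without Siglec-XII 3 and 4. It was 0.054 with array weights and 0.40 with median centring. Neither the Il4ra nor the Il13ra1 difference passed the threshold. Il2rg, the common gamma chain of lymphocyte receptors, was at 1.25 TPM in Control 1 and 0.762 TPM or less elsewhere.

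Il6st encodes gp130, the signaling chain shared by IL-6, IL-11 and related cytokines. It was at 5.55, 5.50, 6.57 and 6.57 TPM in Control 1 to 4 and 5.69, 4.92, 3.70 and 4.09 TPM in Siglec-XII 1 to 4. Siglec-XII 1 lay within the control range, and Siglec-XII 3 and 4 were the lowest samples. The log2 difference was -0.34 ± 0.15 (SE), with an adjusted p of 0.515 in limma, and it was -0.16 without Siglec-XII 3 and 4. The ligand-binding chain Il6ra averaged 2.14 TPM in controls. Il11ra1, the chain for IL-11, averaged 12.9 TPM in controls, but 57.7% of its 31-base words are shared with other genes, mostly copies such as Gm13305, so its level is uncertain.

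On the receptor side of the IL-1 family, the decoy Il1r2 and the IL-36 receptor Il1rl2 varied most among the tested genes on the log2 scale. Il1r2 was at 12.1, 7.38, 4.10 and 24.1 TPM in Control 1 to 4 and 7.30, 13.7, 4.51 and 6.42 TPM in Siglec-XII 1 to 4. Il1rl2 was at 10.4, 5.26, 5.19 and 9.78 TPM in the controls and 6.03, 7.41, 3.99 and 2.87 TPM in Siglec-XII mice. Both overlapped between the groups, and their highest Siglec-XII sample was Siglec-XII 2, as for the squamous sum. Il1r1, the signaling receptor, was at 3.81 TPM in Control 1, between 6.15 and 6.47 TPM in the other controls and between 3.20 and 6.07 TPM in Siglec-XII mice. The accessory chain Il1rap, which Il1r1 and Il1rl2 need to signal, averaged 3.99 TPM in controls.

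Il3ra, the IL-3 receptor alpha chain, was the other receptor gene whose groups did not overlap. It was at 3.71, 4.18, 3.56 and 4.10 TPM in Control 1 to 4 and 3.35, 3.13, 2.80 and 3.49 TPM in Siglec-XII 1 to 4. The gap between Control 3 and Siglec-XII 4 was narrow. The log2 difference was -0.22 ± 0.12 (SE), with an adjusted p of 0.515 in limma, and quantile normalization turned it to 0.02.

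Read as ligands and receptors together, most pairings were complete on 1 side at most. The count concerns RNA of whole tissue and not single cells, and a chain can also act when it is soluble or carried by a neighboring cell. Textbook pairings, written out after the values were seen, cover 32 ligands. For 6 of them (Il1f6, Il1f8, Il1f9, Il1a, Il1b and Il4) the ligand and every chain of the receptor listed for it averaged at least 1 TPM in controls. For Il4 the listed receptor is Il4ra with Il13ra1, and its other receptor, Il4ra with Il2rg, was not complete. With 1 TPM required in every control, only Il1f6 and Il1f9 remained of these 6. For 5 (Il18, Il15, Il33, Il34 and Il7) the ligand did and at least 1 receptor chain did not. For 9, among them Il22, Il17a, Il6 and Il13, all chains did and the ligand did not, and for the other 12 neither side was complete. Il18 and Il15, the most abundant ligands, thus had receptors with a scarce chain, whereas Il1f6, the next by control mean, had a complete receptor. That place rests on its high value in Control 1. By control median Il1f6, at 12.6 TPM, was below Il34 at 18.3 TPM and Il33 at 17.0 TPM, whose receptors were not complete. The chains for IL-17A and IL-22 were present with ligands at or near 0.

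**Figure D3:**
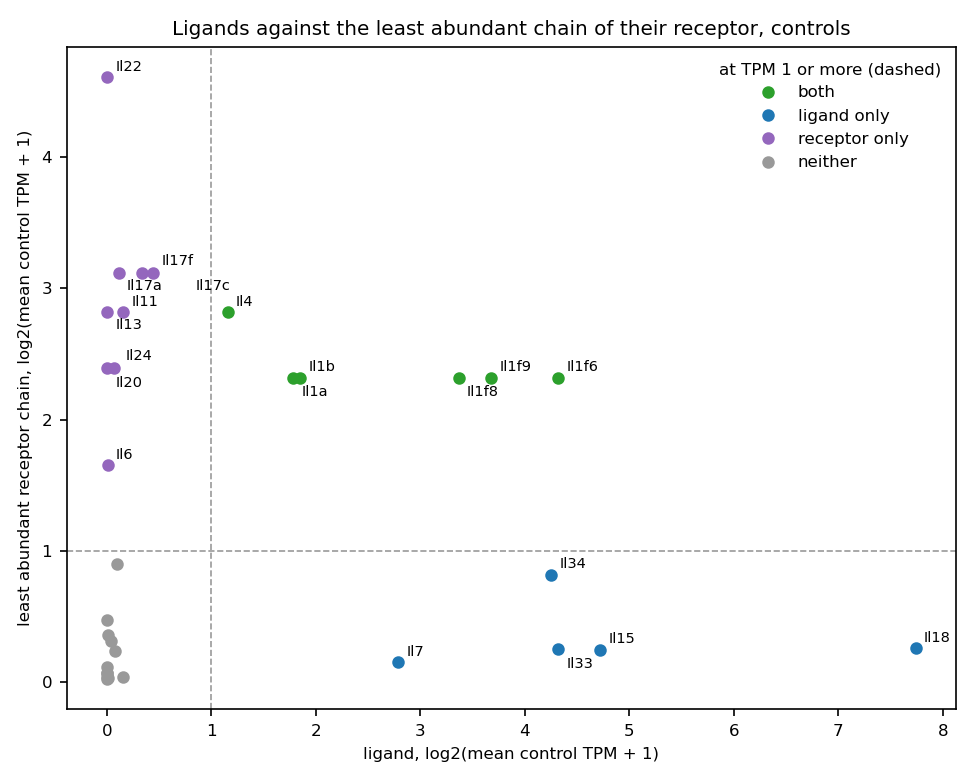
Mean control level of 32 ligands against that of the least abundant chain of their receptor, both as log2(mean TPM + 1), with dashed lines at TPM 1 and colors for which side reaches it. Il22 lies at the upper left, with a ligand at 0 and chains of at least 23.4 TPM, and Il18 at the lower right, with a ligand at 213 TPM and a chain at 0.197 TPM.

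The comparison of the groups asked whether SIGLEC12 expression in the epithelium goes with a change in these signals. A gene was tested where at least 4 of 8 samples reached 1 TPM, which 31 of the 83 members did: 10 ligands, 18 receptor-side genes and 3 antagonists. None of the 31 members passed an adjusted p of 0.05 in limma, against 5 of 13164 genes in all (0.0380%), and the lowest adjusted p among members was 0.515. At an unadjusted P of at most 0.05, 5 members were lower in Siglec-XII mice (Il33, Il1f6, Il1f9, Il4ra and Il6st), which is 16.1% of those tested against 7.67% of all genes. In the other direction 1 member, Il34, was higher, or 3.23% against 1.19% of all genes. Groups without overlap were counted for 2 members on the lower side, Il1f6 and Il3ra (4.06% of all genes), and for 1 on the higher side, Il34 (1.05% of all genes). With counts this small, no share is read as particular to interleukins.

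Direction depended on scaling. The median tested gene was lower in Siglec-XII mice by a log2 difference of -0.15, and 21.9% of all genes and 29.0% of tested members (9 of 31) had a higher mean there. Relative to that median gene, 14 members were higher and 17 lower. The median difference was -0.16 over the 31 members, -0.20 over the 10 ligands and -0.17 over the 18 receptor-side genes. After median centring of each sample, 6 members on the higher side had an unadjusted P of at most 0.05 (Il34, Il1rn, Il10rb, Il22ra1, Il7 and Il13ra1) and 3 on the lower side (Il1f6, Il1f9 and Il33), against 1137 and 285 of all 13164 genes, and no member passed the adjusted threshold in limma. This scaling adds the same amount to the difference of every gene, so small negative differences turn positive by construction, among named genes those of Il17ra, Il6ra, Il15ra, Il11ra1, Il17rc and Il18bp. The direction of these 6 genes is therefore not read as a result. Without Control 1 and Control 4 only Il1f6 had an unadjusted P of at most 0.05, and without Siglec-XII 3 and 4 only Il34 did.

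**Figure D4:**
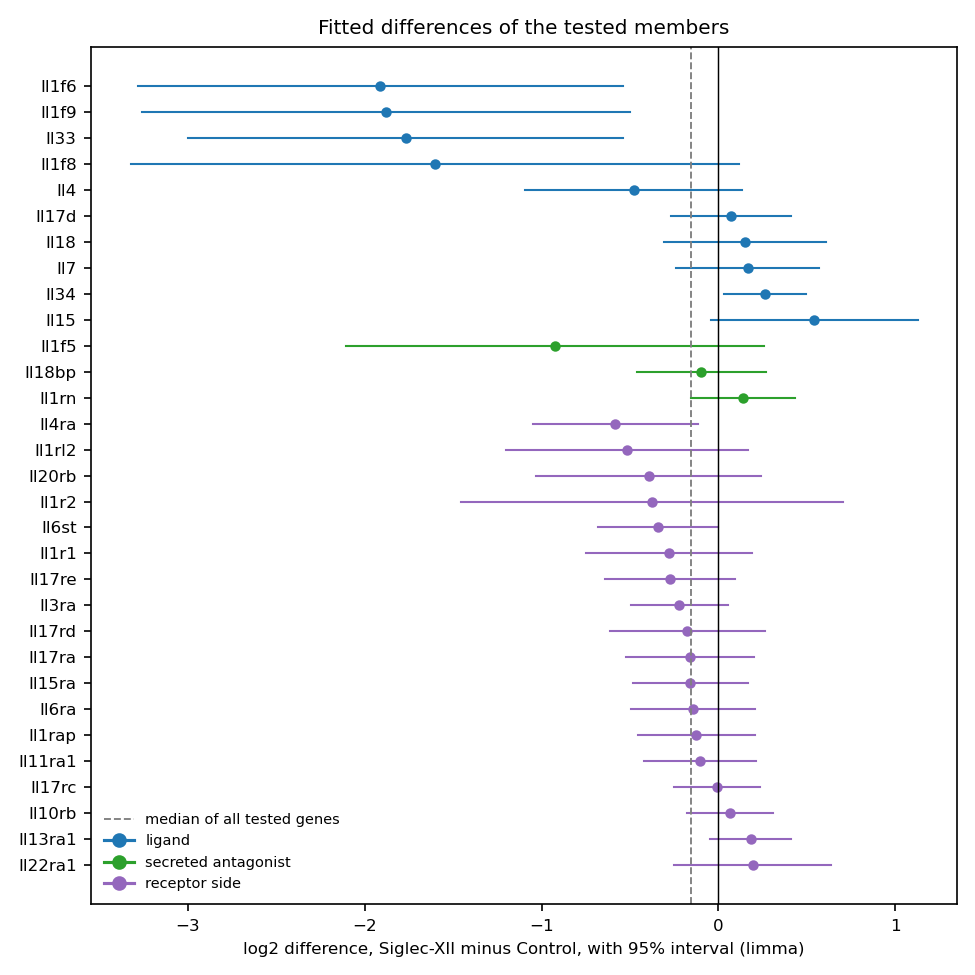
Log2 difference (Siglec-XII minus Control, points) with its 95% interval (lines) from limma for the 31 tested members by role, with a solid line at 0 and a dashed line at the median of all 13164 tested genes, -0.15. Il1f6, Il1f9 and Il33 lie farthest to the lower side and Il15 farthest to the higher side.

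Of 52 genes in the interleukin pathways outside the name rule, 37 were tested and none passed the adjusted threshold in limma. At an unadjusted P of at most 0.05, 1 was higher in Siglec-XII mice. It was Gsdmd, whose product forms the pore that releases IL-1 and IL-18, at 92.1, 118, 124 and 111 TPM in Control 1 to 4 and 136, 136, 127 and 134 TPM in Siglec-XII 1 to 4. Its groups did not overlap. Casp1, which cleaves the IL-1 beta and IL-18 precursors, averaged 108 TPM in controls and 107 TPM in Siglec-XII mice, and its adaptor gene Pycard averaged 316 and 344 TPM. By contrast the inflammasome sensor gene Nlrp3 was at most 0.415 TPM in any sample and was not tested.

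None of the 4 Janus kinase genes had an unadjusted P of at most 0.05. All 4 had lower means in Siglec-XII mice, the direction of most genes, and Jak2 (-0.10) and Tyk2 (-0.02) were above the median gene in log2 difference. Stat3, the main STAT of IL-22, was at 32.8, 47.5, 47.4 and 39.2 TPM in Control 1 to 4 and 47.2, 41.0, 24.5 and 20.6 TPM in Siglec-XII 1 to 4. Siglec-XII 3 and 4 were the lowest samples, and the other Siglec-XII samples lay within the control range. Jak1, the kinase gene with the highest level, had the same low samples, at 19.0 and 17.2 TPM in Siglec-XII 3 and 4 and between 28.2 and 35.4 TPM in the other samples. The epithelial target genes of IL-22 and IL-17 split by gene. The antimicrobial lectin genes Reg3b and Reg3g were at most 0.656 TPM in any sample, whereas Saa1 was between 1668 and 3354 TPM in all of them. Saa3 was at 15.5 TPM in Siglec-XII 3 and 108 TPM in Siglec-XII 4, and between 0.770 and 1.43 TPM in the other samples. Lcn2, which encodes an iron-withholding antimicrobial protein, and Cxcl5, which encodes a neutrophil attractant, were highest in Control 2, at 54.8 and 54.6 TPM.

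Markers of other tissue layers gave no gene past the adjusted threshold in limma, and the sums of the smooth muscle and macrophage lists overlapped between the groups. The 6 smooth muscle genes, led by Tagln, summed to 855, 623, 1003 and 812 TPM in Control 1 to 4 and 638, 563, 651 and 303 TPM in Siglec-XII 1 to 4, and none was at 0. All 6 had lower means in Siglec-XII mice, 3 of them (Myh11, Des and Cnn1) with an unadjusted P of at most 0.05 in limma, against 7.67% of all genes. For 2 of the 6, Des and Cnn1, the groups did not overlap, against 4.06% of all genes on the lower side. The 6 macrophage genes, led by C1qa, summed to 22.4, 9.96, 8.40 and 13.5 TPM in the controls and 6.16, 5.88, 9.80 and 7.49 TPM in Siglec-XII mice, and of the 3 tested C1qb was lower at an unadjusted P of at most 0.05. The 5 endothelial genes summed to between 4.26 and 5.30 TPM in controls and between 2.07 and 3.49 TPM in Siglec-XII mice, without overlap. Of the 2 tested, Pecam1 was between 1.78 and 2.48 TPM in controls and between 0.985 and 1.18 TPM in Siglec-XII mice, without overlap. Pecam1 was lower at an unadjusted P of at most 0.05, whereas Vwf overlapped between the groups. The B and plasma cell sum was 17.7 TPM in Control 1 and between 0.944 and 5.98 TPM elsewhere, the 5 fibroblast genes peaked at 63.9 TPM in Siglec-XII 4, and the mast cell, tuft cell, neuronal and adipocyte lists summed to at most 16.8 TPM in any sample. Whether these layers have a part in the values of Il34, Il4ra, Il6st or Il3ra was not tested.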

How the data were processed

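RNA from colon was sequenced by the authors in 4 Control and 4 Siglec-XII samples, and the deposited table holds log2(TPM + 1) for 52143 Ensembl genes. The submitters' processing notes name kallisto 0.45.0 and GRCm38, whereas the study's methods name another kallisto version, a human reference and a count model, whose counts were not used here. TPM was back-calculated, and it sums to the same total in each library. Genes with at least 1 TPM in at least 4 of 8 samples (13164) entered a linear model of the log2(TPM + 1) values, fitted by limma 3.58.1 under R 4.3.3 with a mean-dependent prior variance, and p-values were adjusted by Benjamini-Hochberg over all of them. limma replaced the count model because no counts were used. The fit was tested on simulated data, and the outcome of that test is not given here. Tables and figures were made in Python 3.11.15.

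The members and lists were chosen with earlier results of these data known. Named genes were Il1b and Il6st; the 8 ligand and 12 receptor-side genes with the highest control means; the 4 tested members with the smallest unadjusted P in each direction; any tested member past the adjusted threshold or with groups that do not overlap; and a fixed set of 26 barrier and lymphocyte genes. Gene positions and transcript words come from GENCODE M21. Alternatives covered filters, pseudocount, scaling, sample weights, a replicate block and left-out samples.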

Additional observations from a re-analysis of the deposited data

Results flagged for a closer look

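Among the 25 named genes that were tested, 50 groups of 4 samples were checked for a sample far from the other 3, by the ratio of its gap to the range of the group (Dixon). Chance gives about 1 in 20 groups, and 2 were found. For Il18, Siglec-XII 3 lay above the other Siglec-XII samples, at 270 TPM against 214 to 220 TPM, with a ratio of 0.891. For Il1r1, Control 1 lay below the other controls, at 3.81 TPM against 6.15 to 6.47 TPM, with a ratio of 0.901.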

How the results depend on the processing

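No member passed the adjusted threshold under any alternative, and the lowest adjusted p among named genes was 0.203, with array weights. Over 25 named tested genes, 387 of 419 gene and alternative pairs kept their direction, and 32, in 11 genes, reversed. Counts of genes moved more, and the cause was not tested.

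Of all genes, 5 passed the adjusted threshold and 1167 had an unadjusted P of at most 0.05, of which 13.5% were higher. These counts were 3 and 2043 without a filter, 3 and 699 with at least 5 TPM in 4 samples, and 18 and 1851 with array weights. They were 2 and 362 without Siglec-XII 3 and 4, and 3 and 561 without Control 1 and 4, an alternative chosen after seeing the data. With 1 sample left out at a time they ranged from 2 to 6 and from 483 to 2365. The share higher was 63.3% with quantile normalization, 80.0% with median centring and 42.8% without Siglec-XII 3 and 4.

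Of members, 6 had an unadjusted P of at most 0.05. This became 3 with at least 5 TPM, 1 without Siglec-XII 3 and 4 and 1 without Control 1 and 4. It became 8 with quantile normalization, 9 with median centring and 9 with array weights. With array weights the differences of Il33 (-0.96) and Il1f9 (-1.05) were smaller, and neither was among the 9. The share of members higher, 29.0%, was 54.8% with quantile normalization, 54.8% with median centring and 45.2% without Siglec-XII 3 and 4. The share of all genes higher, 21.9%, became 53.7%, 61.5% and 50.9%.

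Differences that reversed were small in most genes. Median centring shifts every difference by the same amount, so its 6 reversals follow from the scaling. Quantile normalization gave 0.11 for Il11ra1, 0.090 for Il15ra, 0.082 for Il17ra, 0.088 for Il17rc, 0.092 for Il18bp, 0.019 for Il3ra and 0.032 for Il6ra. Median centring gave 0.11 for Il11ra1, 0.054 for Il15ra, 0.052 for Il17ra, 0.21 for Il17rc, 0.12 for Il18bp and 0.069 for Il6ra. Array weights gave 0.0076 for Il17rc, -0.085 for Il18, 0.17 for Il1r2 and 0.067 for Il6ra. Without Siglec-XII 3 and 4, Il17rc was 0.078, Il1r2 0.019 and Il6ra 0.053. Without Control 1 and 4, Il10rb was -0.024, Il18 -0.055, Il1r2 0.36 and Il7 -0.073. With 1 sample left out, Il17rc ranged from -0.095 to 0.032, Il18 from -0.057 to 0.28, Il18bp from -0.21 to 0.022 and Il1r2 from -0.74 to 0.028.

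With the sample number as a replicate block, 4 genes passed the adjusted threshold, and 945 genes and 5 members had an unadjusted P of at most 0.05; Il15 was added and Il34 and Il6st were lost. Among the members, no other call changed with the block. Calls of pathway and marker genes with the block were not looked at individually. For 0 of 4 controls was the best match the Siglec-XII sample of the same number. With 4 samples in each group this cannot settle whether the numbers pair samples.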
